A study of Rattus norvegicus with 4 samples.

Results

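The DNAJ family, also called HSP40 or J-domain proteins, was described in NR8383 cells, a rat macrophage line started from lung lavage and used as a model of the alveolar macrophage. The members were all genes whose rat RefSeq symbol starts with Dnaja, Dnajb or Dnajc and that had a probe on the array, 41 of 16526 named genes with a value on every array. They were read by 50 of 45598 probes. The study set cells given ZnFe2O4 particles (zinc iron oxide, code NRCWE021) at 17 µg/mL over 4 h against cells without particles, and the cells analysed here had gone through 20 passages. The 4 arrays of exposed cells, 1 for each biological replicate, form the only group here and the unexposed cells were not analysed here. The values therefore show which members were detected in exposed cells and with what spread, and no effect of the particles on a member was measured. RNA came from whole cultures, so a weak signal in every cell cannot be told apart from a strong one in few cells.

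J-domain proteins are the partners that direct HSP70 chaperones to their work. The J domain makes HSP70 split ATP and close on a client protein, and the rest of the co-chaperone chooses the client or the place. Class A members carry a J domain, a flexible linker and a cysteine-rich region that binds zinc, class B members lack the zinc-binding region, and class C members share the J domain alone. Members in the cytosol and nucleus work with Hspa8 and the inducible Hspa1a, those in the lumen of the endoplasmic reticulum with Hspa5, and those in mitochondria with Hspa9. Roles given below are those known mainly from human and mouse proteins.

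The RefSeq table lists 47 protein-coding genes with such a symbol, and 6 of them had no named probe here. Among these were Dnajb1, the major heat-inducible class B member, Dnajc1 of the endoplasmic reticulum membrane, the endosomal Dnajc13 and the auxilin gene Dnajc6. The table also lists 25 pseudogenes of the family. They belong to 10 of the 41 members, with 9 copies for Dnajb6 and 4 for Dnaja1. The probe sequences were not used here, so whether a probe of such a member also reads a copy was not tested.

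The 4 arrays did not behave alike, which touches every value below. Replicates 2 and 3 had high signal in probes for RNAs that do not come from rat cells. Of 3360 spots of 96 ERCC control probes, 2.77%, 86.4%, 66.7% and 1.16% were well above background on replicates 1 to 4, by the flag of the scanner software. Their median signal was 368 and 89.2 intensity units on replicates 2 and 3, with 4.15 on replicate 1 and 3.75 on replicate 4. Among all named genes, 52.3%, 91.6%, 75.5% and 46.3% were well above background on replicates 1 to 4. Detection counts and levels are therefore given on all 4 arrays and on replicates 1 and 4 alone, and the part that this signal plays in a single gene was not tested. Macrophage markers were well above background on both replicates 1 and 4 for 8 of 10 measured genes, Cd68, Itgam, Ptprc, Msr1, Cd14, Lyz2, Spi1 and Mrc1, and Adgre1 and Marco were not. The same holds for 0 of 6 epithelial markers, 1 of 5 fibroblast markers (Dcn) and 1 of 5 T cell markers (Lck). Of all named genes, 46.0% were well above background on both replicates 1 and 4.

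Most of the family was detected in the exposed cells. On all 4 arrays 29 of 41 members were well above background (70.7%), where 42.5% of all named genes were. On replicates 1 and 4 the count was 30 of 41, against 46.0% of all named genes. A further 3 members, Dnajb7, Dnajc5b and Dnajc27, passed the flag on replicates 2 and 3 but failed it on replicates 1 and 4, a pattern found in 27.8% of all named genes. Dnajb8, Dnajc5g and Dnajc28 were so on replicate 2 alone. Dnajb5 and Dnajc18 missed replicate 4, Dnajc16 missed replicates 3 and 4, and Dnajc21 missed replicates 2 and 3. Dnajb3 and Dnajc12 were well above background on no array, as were 6.37% of all named genes.

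**Figure D1:**
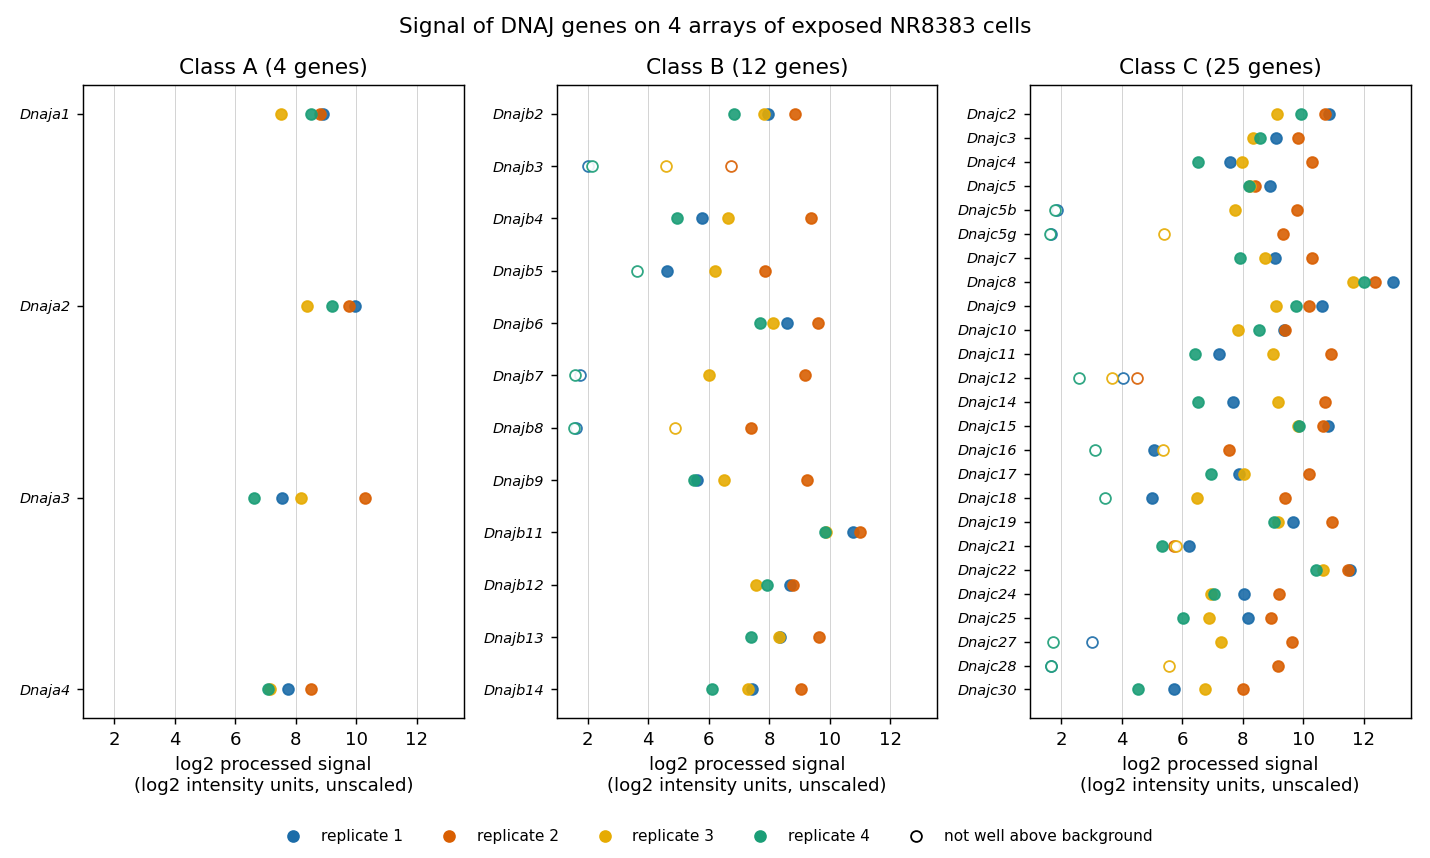
Each row is a DNAJ gene, each point the log2 processed signal of its brightest probe on 1 array, and colours mark the 4 replicates. Filled points are well above background and open points are not. The 29 members detected on all 4 arrays have filled points in every colour, and for Dnajb7, Dnajb8, Dnajc5b, Dnajc5g, Dnajc27 and Dnajc28 the points of replicates 1 and 4 are open and lie far to the left of replicate 2. Rows are not to be compared with each other, since probes differ in brightness.

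All 4 class A members were well above background on all 4 arrays, where 42.5% of all named genes were. Values are processed signals in intensity units on replicates 1 to 4. A level is the log2 signal after subtracting that array's 75th percentile, given as mean ± SD (n = 4), with the mean of replicates 1 and 4 in parentheses. A level above 0 is thus brighter than that percentile. Dnaja1, a farnesylated cytosolic partner of Hspa8, had signals of 474, 445, 183 and 365, at a level of 1.06 ± 1.95 (2.72 on replicates 1 and 4). Dnaja2, its close relative in refolding, had signals of 994, 858, 328 and 591, at a level of 1.95 ± 1.92 (3.60 on replicates 1 and 4). Dnaja1 and Dnaja2 were thus slightly brighter on replicate 1 than on replicate 2, while the median ERCC control probe was far brighter on replicate 2. Dnaja4, also cytosolic, had signals of 214, 359, 141 and 135, at a level of 0.24 ± 1.39 (1.42 on replicates 1 and 4). The level of Dnaja4 turned to -0.10 without replicate 1, to -0.20 without replicate 4 and to -0.60 under quantile normalization. Dnaja3, the class A member of mitochondria, had signals of 185, 1248, 289 and 97.0, at a level of 0.78 ± 0.36 (1.08 on replicates 1 and 4). Unlike the cytosolic members of class A, it was 6.73 times as bright on replicate 2 as on replicate 1. No such ratio exceeded 1.68 in Dnaja1, Dnaja2 and Dnaja4. Outside class A the ratio did not follow the compartment, with 12.1 for the cytosolic Dnajb4 and 0.90 for the mitochondrial Dnajc15.

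Heat shock factor binds inverted repeats of a short motif, the heat shock element, in promoters of chaperone genes. RefSeq promoters of build GRCr8, from 250 bases before the start to 50 bases after it, were found for 31 of the 41 members. They were not found for Dnaja2, Dnajb4, Dnajc2, Dnajc5b, Dnajc8, Dnajc11, Dnajc12, Dnajc15, Dnajc22 and Dnajc24. A heat shock element of 3 repeats, searched on both strands as GAA, NN, TTC, NN, GAA in a row or as TTC, NN, GAA, NN, TTC, was found in 1 of the 31 promoters and in 0.798% of 33469 promoters of the table. The match lies in the promoter of Dnaja1 at base 10 after the start (chr5:60638154-60638453, + strand), shown here because it is the sole member with it. Capitals mark the match.
Dnaja1: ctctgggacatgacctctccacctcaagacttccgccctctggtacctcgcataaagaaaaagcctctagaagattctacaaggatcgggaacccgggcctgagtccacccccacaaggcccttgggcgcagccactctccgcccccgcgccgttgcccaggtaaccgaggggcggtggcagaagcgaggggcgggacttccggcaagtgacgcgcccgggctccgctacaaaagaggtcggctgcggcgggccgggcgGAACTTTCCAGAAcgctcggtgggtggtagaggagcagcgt

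Of 12 class B members, 8 were well above background on all 4 arrays, and the same count held on replicates 1 and 4. Of its 7 cytosolic members, 3 were detected on all 4 arrays (42.9%), near the 42.5% of all named genes. In the endoplasmic reticulum 4 of 4 were. Dnajb2, which guides ubiquitinated clients to the proteasome, had signals of 249.9, 462, 229 and 115, at a level of 0.50 ± 1.12 (1.42 on replicates 1 and 4). Dnajb6, which holds back aggregation of polyglutamine proteins, had signals of 385, 785, 282 and 205 for its brightest probe, at a level of 1.14 ± 1.19 (2.15 on replicates 1 and 4). Both were detected on every array, and their levels on replicates 1 and 4 differed by 0.15 for Dnajb2 and -0.06 for Dnajb6 (replicate 1 minus replicate 4). Dnajb6 had a further probe with signals of 3.58, 326, 91.0 and 4.95, which was not well above background on replicates 1 and 4. With all probes averaged the level of Dnajb6 was -0.21, and under quantile normalization that of Dnajb2 was -0.04. Dnajb4, a relative of Dnajb1 in the cytosol, had signals of 54.7, 664, 98.7 and 30.8, at a level of -0.69 ± 0.34 (-0.63 on replicates 1 and 4). Dnajb5, a further relative of Dnajb1, had signals of 24.6, 231, 73.5 and 12.4 and was below the flag on replicate 4.

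The members known mainly from testis behaved in another way. Dnajb7 had signals of 3.33, 587, 63.7 and 2.97, and Dnajb8, which acts against aggregates, had signals of 3.03, 169.9, 29.5 and 2.91. Dnajb3 had signals of 4.03, 107, 23.8 and 4.45. On replicates 1 and 4 all of these lay near the median of the ERCC control probes, and Dnajb3 passed the flag on no array. Dnajb13, a part of the radial spokes of cilia and sperm tails, was the exception. Its brighter probe had signals of 328, 799.9, 320.5 and 167 and was well above background on all 4 arrays, while its other probe had signals of 127, 193, 48.7 and 58.4 and missed replicate 3.

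Genes of the endoplasmic reticulum were detected for 7 of 9 members on all 4 arrays, and for 9 of 9 on replicate 1. The shares of all named genes were 42.5% and 52.3%. Dnajb11, a co-chaperone of Hspa5 in the lumen, had signals of 1735, 2058, 936 and 914, at a level of 3.00 ± 1.56 (4.31 on replicates 1 and 4). Dnajc3, which acts in the lumen and was found as an inhibitor of the kinase PKR, had signals of 554, 913, 323 and 384, at a level of 1.60 ± 1.49 (2.86 on replicates 1 and 4). Dnajc10, which reduces disulfide bonds of misfolded proteins, had signals of 659, 684, 229.8 and 377, at a level of 1.42 ± 1.80 (2.98 on replicates 1 and 4). These lumenal members were clear of the flag on every array. Dnajb9, which represses the stress sensor IRE1 and is induced by its output XBP1, had signals of 48.6, 609.7, 89.8 and 45.6, at a level of -0.66 ± 0.56 (-0.43 on replicates 1 and 4). It was 12.5 times as bright on replicate 2 as on replicate 1, against 1.19 times for Dnajb11.

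The remaining members of this compartment sit in its membrane. Dnajb12, which helps degrade misfolded membrane proteins, had signals of 408, 443, 189 and 241, at a level of 0.87 ± 1.70 (2.31 on replicates 1 and 4). Dnajb14, its relative, had signals of 173, 529, 156 and 69.7, at a level of 0.10 ± 0.81 (0.79 on replicates 1 and 4). The level of Dnajb14 turned to -0.19 without replicate 1, to -0.07 without replicate 4 and to -0.52 under quantile normalization. Dnajc14, which carries receptors to the surface, had signals of 203, 1705, 579.9 and 92.2 for its brightest probe, at a level of 1.16 ± 0.18 (1.11 on replicates 1 and 4). The other probe of Dnajc14 had signals of 262, 269.5, 167 and 102, so the excess on replicate 2 was seen with 1 of its 2 probes. Dnajc16 had signals of 33.2, 188, 41.2 and 8.62, and Dnajc18 had signals of 32.2, 669.8, 90.1 and 11. Both were below the flag on replicate 4, and Dnajc16 was so on replicate 3 as well.

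Genes of the unfolded protein response carry other motifs. The endoplasmic reticulum stress element, which ATF6 and XBP1 bind, was searched on both strands as CCAAT and CCACG with NNNNNNNNN between them and was found in 1 of the 31 member promoters, that of Dnajc3, and in 0.0657% of all promoters. The unfolded protein response element, searched on both strands as TGACGTGG, was found in Dnajc10, Dnajc25 and Dnajb3 and in 0.595% of all promoters. Matches of the metal response element, which the zinc sensor MTF1 binds, searched on both strands as TGCACNC or TGCGCNC, were found in 11 of 31 member promoters and in 24.2% of all promoters. No match overlapped a match of another motif. The promoters of Dnajc3 (chr15:102432417-102432716, + strand) and Dnajc10 (chr3:85639339-85639638, + strand) are shown as those of lumenal members with a match. That of Dnajb3 (chr9:96244309-96244608, - strand) is shown because it holds the same element as Dnajc10 while the gene was detected on no array. Build is GRCr8, and capitals mark the 2 stress motifs.
Dnajc3: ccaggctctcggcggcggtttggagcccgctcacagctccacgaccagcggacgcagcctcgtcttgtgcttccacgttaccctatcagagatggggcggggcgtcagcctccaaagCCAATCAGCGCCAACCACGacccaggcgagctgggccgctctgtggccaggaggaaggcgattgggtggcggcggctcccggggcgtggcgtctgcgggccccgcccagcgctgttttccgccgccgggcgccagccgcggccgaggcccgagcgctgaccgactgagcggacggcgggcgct
Dnajc10: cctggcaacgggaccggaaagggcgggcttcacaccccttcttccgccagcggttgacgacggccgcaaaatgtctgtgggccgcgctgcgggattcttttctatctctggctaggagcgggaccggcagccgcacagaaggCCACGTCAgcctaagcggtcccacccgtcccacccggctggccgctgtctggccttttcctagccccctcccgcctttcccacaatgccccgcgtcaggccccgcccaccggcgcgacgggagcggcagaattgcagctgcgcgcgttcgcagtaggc
Dnajb3: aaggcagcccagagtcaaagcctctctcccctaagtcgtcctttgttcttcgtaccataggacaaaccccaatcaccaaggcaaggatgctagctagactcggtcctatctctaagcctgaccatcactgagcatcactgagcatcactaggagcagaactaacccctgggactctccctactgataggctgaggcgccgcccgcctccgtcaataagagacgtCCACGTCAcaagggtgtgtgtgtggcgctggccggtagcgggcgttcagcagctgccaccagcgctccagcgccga

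Class C, the largest and most mixed class, had 17 of 25 members well above background on all 4 arrays and 18 on replicates 1 and 4. The shares of all named genes were 42.5% and 46.0%. Dnajc2, which sits on the ribosome with its HSP70 partner and folds new chains, had signals of 1846, 1701, 562 and 986, at a level of 2.79 ± 1.87 (4.41 on replicates 1 and 4). It is the member with the most spots, 10 on each array, and the SD between its kept spots was 0.17, 0.17, 0.09 and 0.35 log2 units on replicates 1 to 4. Dnajc5, the cysteine string protein of secretory vesicles, had signals of 475, 337, 302 and 298 for its brighter probe, at a level of 1.07 ± 1.89 (2.57 on replicates 1 and 4). Its other probe had signals of 241, 143, 105 and 166, and with both averaged the level of Dnajc5 was 0.49. Dnajc7, which passes clients between HSP70 and HSP90, had signals of 543, 1258, 432 and 240.2, at a level of 1.64 ± 1.02 (2.51 on replicates 1 and 4). Dnajc9, a chaperone of histones H3 and H4 in the nucleus, had signals of 1594, 1175, 553 and 870.1, at a level of 2.56 ± 1.95 (4.22 on replicates 1 and 4). Dnajc2, Dnajc5 and Dnajc9 were brightest on replicate 1, and Dnajc7 was brightest on replicate 2.

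Dnajc21, which serves late steps of the large ribosomal subunit, was the only member detected on replicates 1 and 4 but missed on both other arrays. Its unscaled signals were 75.2, 53.1, 55.0 and 40.2, while its levels ran between -4.00 on replicate 2 and -0.17 on replicate 4. On replicate 2 it lay below the median ERCC control probe. Dnajc12, a partner of phenylalanine hydroxylase named after its values were seen, had signals of 16.6, 22.8, 12.8 and 6.04. On replicate 2 this equals the median of 23.0 of the negative control spots within 1 unit. The signal of control probes on replicate 2 was therefore not shared by every probe. Dnajc5b and Dnajc5g, testis relatives of Dnajc5 named with values after these were seen, had signals of 3.66, 883, 213 and 3.48 and of 3.14, 644, 42.6 and 3.12. Both lay near the median ERCC control probe on replicates 1 and 4.

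All 5 members assigned to mitochondria, Dnaja3, Dnajc11, Dnajc15, Dnajc19 and Dnajc30, were well above background on all 4 arrays, where 42.5% of all named genes were. The count rests on the assignment, which left Dnajb13, Dnajc4, Dnajc22, Dnajc25, Dnajc27 and Dnajc28 in the group of others. Of those, Dnajc27 and Dnajc28 were not detected on replicates 1 and 4. Dnajc19 and Dnajc15 belong to the motor that pulls proteins through the inner membrane with Hspa9. Dnajc19 had signals of 807, 1994, 582 and 531, at a level of 2.34 ± 1.20 (3.37 on replicates 1 and 4), and Dnajc15 had signals of 1794, 1608, 909.6 and 922, at a level of 2.91 ± 1.71 (4.34 on replicates 1 and 4). A further probe of Dnajc19 had signals of 3.49, 222, 68.6 and 3.31 and was not well above background on replicates 1 and 4. The 2 probes of Dnajc19 therefore give different answers on those arrays, and with both averaged its level was -0.34. Dnajc11, which shapes the inner membrane, was named after its values were seen and had signals of 151, 1939, 518 and 85.4. It was 12.9 times as bright on replicate 2 as on replicate 1, against 0.90 times for Dnajc15.

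The other class C members well above background on all 4 arrays were Dnajc4, Dnajc8, Dnajc17, Dnajc22, Dnajc24, Dnajc25 and Dnajc30. Dnajc8, a factor bound to the splicing machinery and named after its values were seen, had signals of 8069.6, 5366, 3235 and 4095. Dnajc22, whose fly counterpart Wurst acts in endocytosis, was chosen in the same way and had signals of 3013, 2835, 1631 and 1364. The 2 spots of Dnajc22 differed by an SD of 0.11 log2 units or less on every array. Both genes were clear of the control probes on every array.

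The classes were set beside each other by counts, since levels of different probes cannot be compared. The share well above background on all 4 arrays was 4 of 4 in class A, 8 of 12 in class B and 17 of 25 in class C. By compartment it was 13 of 21 for cytosolic and nuclear members, 7 of 9 for the endoplasmic reticulum, 5 of 5 for mitochondria and 4 of 6 for the others. On replicates 1 and 4 the counts were 14 of 21 for cytosolic and nuclear members and 7 of 9 for the endoplasmic reticulum. On replicate 1 alone they were 15 of 21 and 9 of 9. The shares of all named genes were 42.5% on all 4 arrays, 46.0% on replicates 1 and 4 and 52.3% on replicate 1. Members of a class are not replicates, so no test was made. A stricter count, chosen after seeing the data, required a signal above the 95th percentile of ERCC control probes on each array. It was passed on all arrays by 13 of 41 members, against 19.5% of all named genes. It left 1 of 4 in class A, 1 of 12 in class B and 11 of 25 in class C. Of cytosolic and nuclear members it left 5 of 21, beside 2 of 9 in the endoplasmic reticulum. On replicate 1 alone, 4, 9 and 22 members of classes A, B and C passed it, and on replicate 4 alone 4, 9 and 21. Of 16526 named genes, 10295 passed it on replicate 1 and 9918 on replicate 4. Over all 4 arrays the cytosolic and endoplasmic reticulum shares were 23.8% and 22.2%, and class C had the highest share of the 3 classes. In each class and compartment the all-array count equalled that on replicate 2. The threshold was 1084 units there, against 7.93 on replicate 1. Dnaja3, with 185 and 1248 on replicates 1 and 2, passed, and Dnaja2, with 994 and 858, did not. The order of the groups by this count therefore does not rank their detection. Of mitochondrial members 4 of 5 passed the threshold on all arrays. The 13 members were Dnaja3, Dnajb11, Dnajc2, Dnajc4, Dnajc7, Dnajc8, Dnajc9, Dnajc11, Dnajc14, Dnajc15, Dnajc17, Dnajc19 and Dnajc22.

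**Figure D2:**
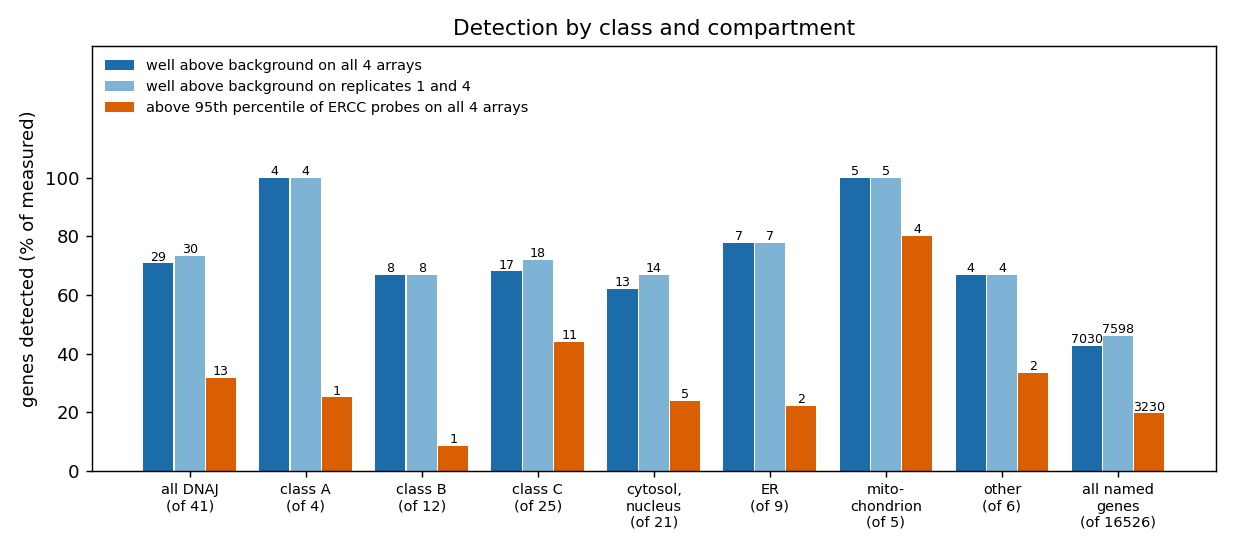
Bars give the share of measured genes, in percent, that passed each of 3 rules, by class, by compartment and for all named genes, with the number of genes above each bar. All 4 class A members were well above background on all 4 arrays and 1 passed the threshold of the ERCC probes, while class C kept 11 of 17. That threshold lay far higher on replicates 2 and 3 than on replicates 1 and 4.

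The partners of the family were counted by the same flag. Of 13 measured HSP70 and HSP110 genes, 10 passed it on all 4 arrays (76.9%), where 42.5% of all named genes did. The cytosolic Hspa8 had signals of 63622, 54958, 38166 and 42276, Hspa5 of the endoplasmic reticulum had 3579.9, 2194, 1653 and 1886, and the mitochondrial Hspa9 had 1944, 1447, 407 and 868. Hspa8, Hspa5 and Hspa9 were each brightest on replicate 1. Hsph1, an HSP110 that exchanges nucleotide on HSP70, had signals of 91.6, 704, 193 and 65.5. Of 14 exchange factors and regulators, 12 passed it on all 4 arrays, again beside 42.5% of all named genes. Bag3, an exchange factor that steers clients to autophagy, had signals of 2501, 1847, 1579 and 1435. Stub1, the ubiquitin ligase of HSP70 clients, had 9563, 6131, 5240 and 4495, and Sil1, the exchange factor of Hspa5, had 1852, 1669, 1425 and 957. These genes were detected on every array. Of 3 measured J-domain genes with other symbols, Gak and Hscb were well above background on all 4 arrays. Sec63 of the translocation channel had signals of 82.4, 524, 26.7 and 54.7 and missed replicate 3.

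Replicates 1 and 4 were the closest pair of arrays by correlation and, of the pairs whose differences were taken, by scaled differences. For the 29 members that passed the flag everywhere, the median absolute difference in level was 0.16 log2 units, against 0.20 over 6923 genes, with the 75th percentile scaling. It was 0.43 against 0.48 with arrays scaled on the 3 brightest spike-in probes and 0.92 against 0.96 without scaling. Without scaling, replicates 1 and 2 were closer, at 0.89 for members and 0.71 over all genes. Pearson's r of the log2 signals across these members reached 0.98 between replicates 1 and 4, with 0.64 between replicates 1 and 2. The points of each are probes that share their arrays, and over 6923 genes the values were 0.99 and 0.79. By the 75th percentile scaling the members farthest apart were Dnajc25, at 1.15 log2 units higher on replicate 1, and Dnajb9, at -0.88 (replicate 1 minus replicate 4). A difference as large as that of Dnajc25 was found in 0.924% of all genes, and as large as that of Dnajb9 in 2.76%. Dnaja1 came next, at -0.60, and 8.65% of genes were as far apart. With the spike-in scaling Dnajc25 stood at 1.63, Dnajb9 at -0.40 and Dnaja1 at -0.11, and Dnajb14 at 0.82 lay farther apart than Dnajb9. Without scaling all 29 members were brighter on replicate 1, as were 6866 of the 6923 genes. The difference was 2.12 for Dnajc25, 0.09 for Dnajb9 and 0.38 for Dnaja1. The sign and the rank of Dnajb9 and Dnaja1 thus depended on the scaling. Dnajc25, named after its values were seen, had signals of 287, 496, 119 and 66.0. With 1 culture on each array, these differences have no error of their own.

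**Figure D3:**
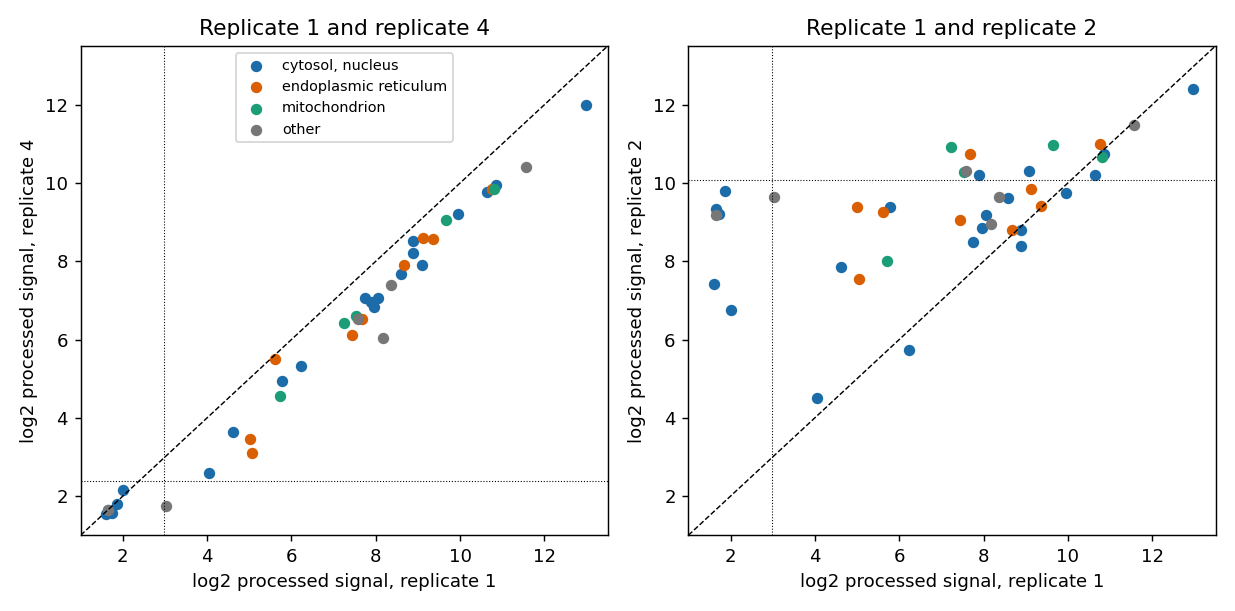
Each point is 1 of 41 DNAJ genes, with the log2 processed signal of its brightest probe on replicate 1 (x axis) and on replicate 4 or replicate 2 (y axis). The dashed line marks equal signals, dotted lines the 95th percentile of ERCC control probes on each array, and colours the compartment. On the left most of the brighter points follow a line below the diagonal, and the dimmest lie near it. On the right genes that were dim on replicate 1 spread over a wide range on replicate 2.

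The spread over all 4 arrays depended on the scaling. With the 75th percentile of each array as zero, the 29 members had a median SD of 1.22 log2 units (0.18 to 1.95), against 1.55 over all 6923 genes. When the 3 brightest spike-in probes set the zero of each array, the median SD was 0.90 for members, against 0.73 for all genes. Mitochondrial members had a median SD of 0.43 by the first scaling and 1.54 by the second. For cytosolic and nuclear members the medians were 1.39 and 0.80, and for those of the endoplasmic reticulum 1.49 and 0.77. The mitochondrial members were split. Dnaja3, Dnajc11 and Dnajc30 had the larger SD by the second scaling, while Dnajc15 (1.71 and 0.49) and Dnajc19 (1.20 and 0.98) had it by the first. Dnajc11 and Dnajc14 had SDs of 0.22 and 0.18 by the first scaling and of 2.11 and 1.92 by the second. Dnajc5 went the other way, with an SD of 1.89 by the first and 0.19 by the second, as did Dnajc8 with 1.93 and 0.48. An SD beside a level here therefore does not say how much a member varied between cultures.

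**Figure D4:**
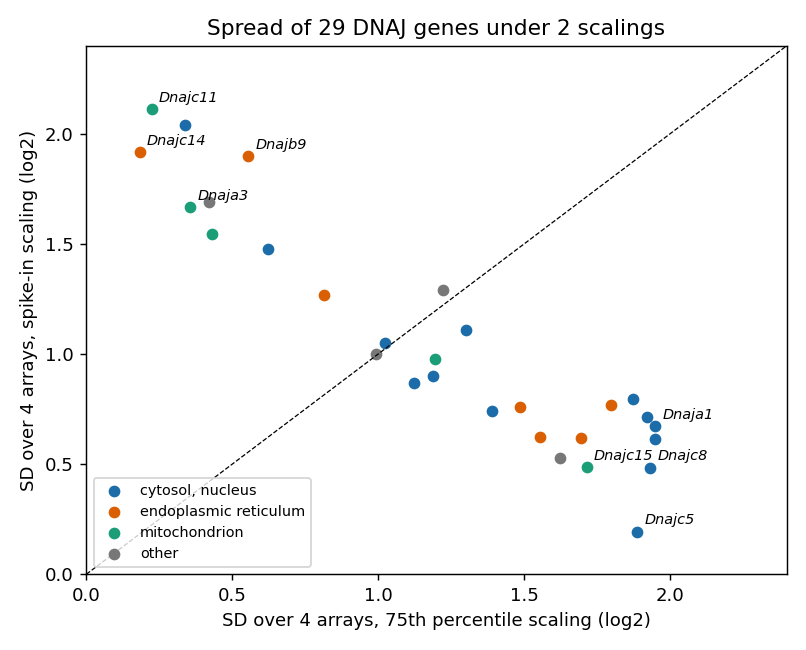
Each point is 1 of 29 DNAJ genes, with its SD over 4 arrays in log2 units when arrays are scaled on their 75th percentile (x axis) or on 3 spike-in probes (y axis). The dashed line marks equal SDs and colours the compartment. Members with a small SD by 1 scaling, such as Dnajc11 at 0.22 or Dnajc5 at 0.19, have a large one by the other.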

How the data were processed

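RNA of 4 cultures of exposed NR8383 cells was labelled with Cy3 and read on 1-colour arrays, 1 for each culture. The intensity of each spot is as deposited, from Agilent Feature Extraction 11.0.1.1 with background subtraction and spatial detrending inside each array, per the file headers. Flags for background, outliers and saturation, in the data type named other, are as deposited by the authors. The deposited value table equals the median pixel intensity on all 62976 spots of each array. The members and lists were chosen with earlier results of these data known.

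Probes were named by accession through the RefSeq table of GRCr8. Control spots and outlier spots were left out, repeat spots were averaged as log2 values, and a probe counted as detected if 0.5 or more of its spots were flagged. A gene was detected on an array if any probe was, and its level comes from 1 probe, the brightest by mean. Normexp correction (offset 50) used limma 3.58.1, and the rest Python 3.11.15. The summaries were tested on simulated data. Compartments were assigned from textbook knowledge. Named are all members of classes A and B and of the endoplasmic reticulum, 7 measured class C genes fixed in a list and 8 partner genes, with others marked in the text. The ERCC threshold was added later. The number of arrays limits the precision.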

Additional observations from a re-analysis of the deposited data

How the results depend on the processing

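No paired analysis was possible because all samples form 1 group. Asking for a signal that exceeds each array's dimmest spike-in by 3 SD left 10 of 41 members, with 0 of class A, 1 of class B, 9 of class C, 4 cytosolic and nuclear and 2 endoplasmic reticulum members, against 15.4% of all named genes. The 95th percentile of ERCC probes left 13 members, with 1, 1, 11, 5 and 2 in the same order. Both thresholds lie higher on replicates 2 and 3 than on replicates 1 and 4. The other flag, 3 of 4 arrays, the chosen probe, kept outlier spots and leaving out each replicate kept all these counts within 1.5 times. The median SD of members was 1.22, and 0.55 when arrays were scaled on detected probes and 0.11 on replicates 1 and 4 alone. Without single replicates it ranged from 1.20 to 1.31. Of 21 named levels, averaging all probes moved Dnajb6 to -0.21, Dnajc14 to 0.66 and Dnajc19 to -0.34, quantile normalization moved Dnajb4 to -1.04 and Dnajc14 to 1.58, normexp moved Dnajc14 to 0.64 and the deposited value table to 0.71. Quantile normalization also turned Dnajb2 to -0.04. Replicates 1 and 4 alone shifted the 21 levels by a median of 1.18. The cause was not tested. The high signal of ERCC control probes on replicates 2 and 3 limits what can be said of dim members there.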

Other observations

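Probes of 1 member did not brighten alike from array to array. For the 8 members with several probes, the log2 signal of replicate 2 minus that of replicate 1 ranged over 5.48 log2 units between the 3 probes of Dnajb6, 4.69 between those of Dnajc19 and 3.03 between those of Dnajc14. It ranged over 0.26 between those of Dnajc5 and 0.68 between those of Dnajb13. In 5 of the 8 members the probes disagreed on detection on at least 1 array, namely Dnajb6, Dnajb13, Dnajc4, Dnajc19 and Dnajc27.

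Promoters of the family were rich in CpG. The 31 promoters found had a median of 25 CpG in 300 bases and 61.7% G and C, against 7 and 51.7% over all 33469 promoters. For 21 members detected on all 4 arrays the medians were 26 (10 to 53) and 63.7%, and for 6 members detected on neither replicate 1 nor 4 they were 11.5 (2 to 23) and 56.2%. The ranges overlap and no test was made.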
